A study of Mus musculus with 9 samples.

Results

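The genes described here encode cytokines and ligands of the tumour necrosis factor (TNF) family, the secreted or membrane-bound proteins through which immune and stromal cells signal to each other. They were taken from a list of 41 mouse gene symbols chosen by function. Of these, 40 had a RefSeq entry in the deposited tables, out of 23000 gene symbols with an entry, and Il12b was not analysed here because no entry could be matched to its symbol. For a symbol with several entries, as for 10 of the members, the entry with the highest values was used. The members were read as 6 groups by role: 5 genes of the interleukin-1 family, 7 genes around the common gamma chain, TSLP and type 2 immunity, 4 of the interleukin-6 family, 8 of the interleukin-12, interleukin-10 and interleukin-17 families with interferon gamma, 5 colony-stimulating factors and 11 TNF family ligands.

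Medullary thymic epithelial cells (mTECs) display self-antigens to developing T cells. Their mature subset, mTEChi, carries high levels of MHC class II and expresses Aire, a nuclear factor that switches on many genes otherwise restricted to single peripheral tissues. On the one side mTECs respond to TNF family ligands such as RANKL, which drive their maturation. On the other side they transcribe cytokine genes themselves, either as signals for neighbouring cells or as part of the broad set of self-antigens. Many cytokine mRNAs carry AU-rich stretches in the 3′ untranslated region (3′ UTR), which in activated leukocytes recruit decay factors such as tristetraprolin.

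Polyadenylated RNA of mTECs from B6 mice was sequenced in 9 libraries, 1 library a group. A first pair held mTEChi labelled Aire-KO (genotype Aire-/-) and WT mTEChi, and a second pair held WT mTEChi and WT mTEClo, the MHC class II low subset, from the same mice. In the remaining series WT mTEChi were kept for 0, 1.5, 3, 6 or 12 h with 1 µM actinomycin D, which blocks transcription, to follow how fast transcripts disappear. All cells were sorted from pooled thymi of 4-week-old mice as CD45-negative, Ly51-negative cells with high or low surface MHC class II, so that no library is a single animal. There were no replicates within a group: folds are given with exact 95% intervals that cover counting error only, and fewer cells of a type cannot be told apart from less RNA per cell.

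The 5 untreated libraries held 74161592 to 195444567 reads assigned to genes and the 4 treated ones 1746825 (12 h) to 21124165 (1.5 h). For the 4 paired libraries and 0 h the TruSeq kit and reads from both ends were used, whereas the treated libraries were amplified with the SMARTer and Nextera kits and read from 1 end, so that kit and treatment cannot be told apart in any value against 0 h. The kit did not mark strand. In the table of the Aire pair no column names its sample, and which column is which was taken from the code published with the study. The Aire entry, which sums all exons and so does not test a deletion of some of them, stood at 87380 normalised counts in the library labelled Aire-KO, with WT at 29191. Normalised counts are reads divided by the size factor of their library. In the second pair Aire was 29.3-fold higher in mTEChi (27.6 to 31.2), and Ccl21a, a chemokine of immature mTECs, was 20.7-fold higher in mTEClo. Markers of other cells also differed between the libraries: summed over 11 dendritic cell and macrophage genes they reached 362 CPM (counts per 1000000 reads) in the library labelled Aire-KO, with WT at 766 CPM, and 603 in mTEChi against 123 in mTEClo. Lyz2 alone held 336 and 574 CPM of the sums in the Aire pair and 464 and 50.7 CPM in the second pair. In the Aire pair 7 of the 11 genes were at least 3-fold lower, against 21.1% of all entries, with a median fold of 0.117. Over 8 tuft cell genes the sums were 158 against 770 and 219 against 1308 CPM, over 6 keratinocyte genes 91.1 against 1152 and 350 against 648 CPM, and over 8 fibroblast genes 200 against 132 and 162 against 837 CPM. The 6 mast cell genes summed to 116 against 100 and 104 against 53.8 CPM. Of them Cpa3, Tpsb2, Mcpt4 and Cma1 had 0 reads in the library labelled Aire-KO, while Kit had 15326 normalised counts there and 8116 in WT. None of these lists was at 0 as a whole, and the part of such cells in the results below was not tested.

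One set of sequences is shown first because AU-rich elements are a known feature of cytokine mRNAs. The nonamer TTATTTATT, the core of the AU-rich element bound by tristetraprolin, was searched on the transcribed strand in the longest annotated 3′ UTR of each gene. It occurred in 10 of 39 members with an annotated 3′ UTR (25.6%), against 6.52% of all 19915 genes and 4.43% of the 4536 genes whose 3′ UTR was between 498.5 and 1096 bases long, the middle range of the members. These 10 sites are given 5′ to 3′ on the transcribed strand with 30 bases each, taken from the GENCODE vM1 transcripts on build NCBIM37 (mm9), and capitals mark the nonamer.
Il2 (chr3:37019819-37019848, minus strand): ttatctgaaaTTATTTATTatattgaattg
Il13 (chr11:53445242-53445271, minus strand): cttcttgatcTTATTTATTatggttgtgtg
Il11 (chr7:4725103-4725132, minus strand): aaaccagatcTTATTTATTtatttattttg
Lif (chr11:4172042-4172071, plus strand): aaaggggcctTTATTTATTatttaaaactt
Il12a (chr3:68502358-68502387, plus strand): ctatttatatTTATTTATTttctatttatt
Il22 (chr10:117646929-117646958, plus strand): atatgtaagtTTATTTATTataagtataca
Il23a (chr10:127733239-127733268, minus strand): tagatgatggTTATTTATTctatttataag
Csf2 (chr11:54060830-54060859, minus strand): ttttaaatatTTATTTATTtatttatttat
Tnf (chr17:35336622-35336651, minus strand): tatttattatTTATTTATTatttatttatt
Lta (chr17:35340340-35340369, minus strand): aaaagttaagTTATTTATTtatagagaata
Csf2 and Tnf carried the densest elements: each window held 5 copies of ATTTA, the pentamer inside the nonamer, with overlapping copies counted. Il11 and Tnf each had 5 nonamers in the whole 3′ UTR and Csf2 had 4. In Il2, Il13 and Il22 the single nonamer stood alone in its window, with 1 ATTTA. A match describes these letters and not a bound factor, and members without the nonamer still held 0 to 11 ATTTA, among them Il6 with 5 and Il10 with 6.

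The highest levels among the members belonged to a small group. In units corrected for transcript length (RPKM, CPM per kilobase of exon, as the median of the 3 untreated WT mTEChi libraries), Il23a led with 112, followed by Il13 with 91.3, Il1rn with 90.4 and Tnfsf9 with 81.3. Il12a stood at 43.6, Tnf at 41.9, Ltb at 23.8, Il15 at 20.9 and Il7 at 15.1 RPKM. In all, 13 of 40 members reached 10 RPKM and 9 stayed below 1 RPKM. The lowest was Fasl, the ligand of the death receptor Fas, at 0.0405 RPKM. The ranges of the 3 WT libraries overlapped among the first 4, between Il12a and Tnf, and among Ltb, Il15 and Il7. The 3 WT libraries spanned 2.32-fold for Il13, 3.26-fold for Il1rn and 3.19-fold for Tnfsf9, against 1.26-fold for Il23a. Over 39 members with reads in all 3 WT libraries the median span was 1.91-fold, close to the 1.88-fold of all entries, and 10 members spanned over 3-fold.

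**Figure D1:**
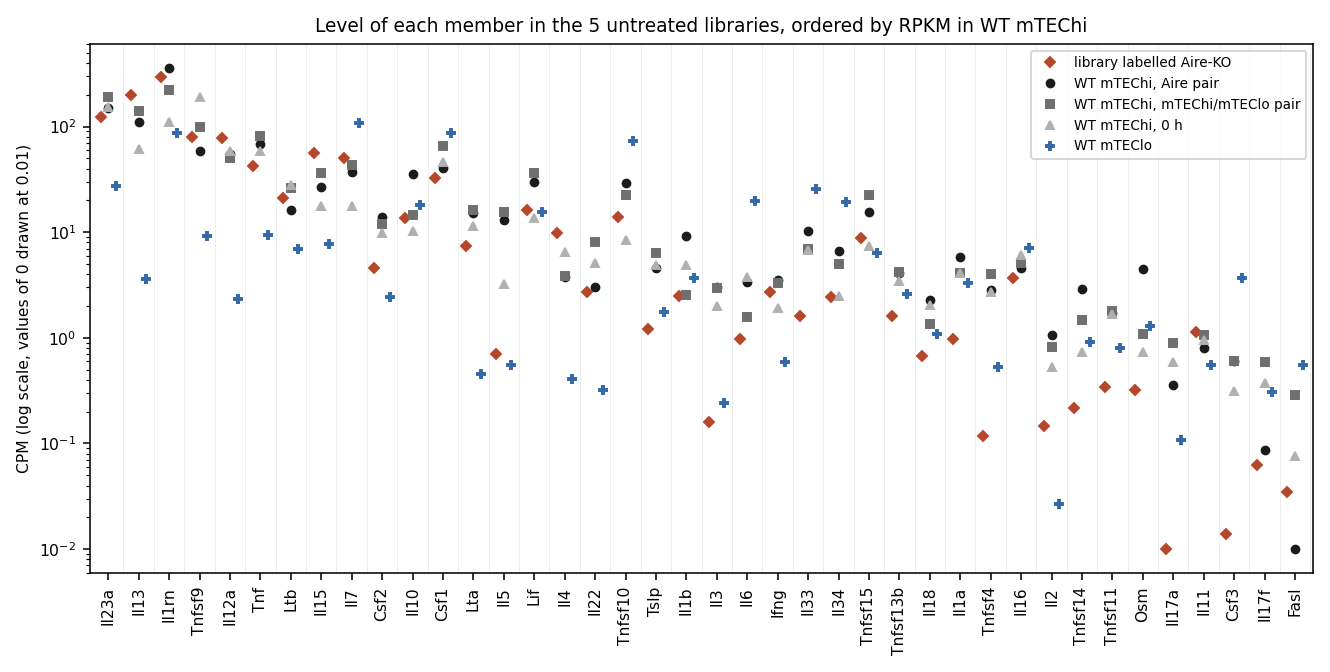
Level of the 40 members in the 5 untreated libraries, in CPM on a log axis, ordered from left to right by RPKM in WT mTEChi. Diamonds show the library labelled Aire-KO, black circles, grey squares and light triangles the 3 untreated WT mTEChi libraries, and blue crosses mTEClo. The diamonds of Il3, Tnfsf4 and Csf3 lie far under the WT symbols, and the crosses of Il13, Lta and Il12a lie far under while that of Il6 lies above.

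The first comparison asked which members depended on Aire. Set against WT, 13 of 39 members with at least 10 normalised counts were at least 3-fold lower in the library labelled Aire-KO and only Il4 was at least 3-fold higher. Another 17 of the 39 differed by less than 2-fold, a smaller share than the 17535 of all 26761 entries. The median fold was 0.560, against 0.978 over all 26761 entries. Among all entries, 21.1% were at least 3-fold lower and 2.03% at least 3-fold higher, so the share of members that were lower (33.3%) exceeded the background while the single higher one was near it. Read against all 3 untreated WT mTEChi libraries in CPM, the library labelled Aire-KO was the lowest for 25 of 40 members and the highest for 6. For all entries these shares were 46.1% and 11.0%.

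A fit with a spread between libraries was possible only by treating the 3 untreated WT mTEChi libraries as replicates and assuming that the lone library varies like them. In this edgeR quasi-likelihood fit, with p-values adjusted over 23916 entries, 3 of 40 members fell and none rose. Over all entries 8.64% were called lower and 0.0878% higher. The 3 members were Il3, Il17a and Tnfsf4. Without the 0 h library, the number of members called by edgeR was 10, of which 9 fell and Il4 rose, with 12.2% of all entries called lower and 0.432% higher. DESeq2 called 10 members, all lower, and 14.8% of all entries lower.

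Il3, a growth factor of mast cells and basophils made mainly by activated T cells, had 0.161 CPM in the library labelled Aire-KO and 3.01, 2.99 and 2.00 CPM in the 3 WT libraries. The edgeR log2 fold of Il3 was -3.78 (SE 0.76, adjusted p = 0.0255). Tnfsf4, which encodes the T cell costimulator OX40L, had 0.119 CPM against 2.84, 4.06 and 2.74 CPM, a log2 fold of -4.48 in edgeR (SE 0.77, adjusted p = 0.0162). For both, the lone library lay far under the lowest WT library. Il17a, the main cytokine of Th17 cells, had 0 reads in the library labelled Aire-KO, where 3 reads would be 0.0210 CPM, against 0.355, 0.890 and 0.590 CPM in the WT libraries. The edgeR log2 fold of Il17a was -9.28 (SE 1.82). In the pair itself Il17a was 14.4-fold lower when the 0 was set to 3 reads, with a counting interval that began at 11.15-fold.

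In the interleukin-1 family, whose members are alarm cytokines of epithelia and myeloid cells, 3 of 5 genes were at least 3-fold lower in the library labelled Aire-KO. Il33, an alarmin of barrier epithelia and endothelium, had 211 normalised counts there against 1165 in WT, 5.52-fold lower (4.78 to 6.40). Il1a had 128 against 656 normalised counts, 5.14-fold lower (4.27 to 6.23). Il1b, cut into its active form by caspase-1, had 332 against 1027, 3.09-fold lower with an interval of 2.74 to 3.50 that reached across the 3-fold limit. Il18, also a caspase-1 substrate, stood at 89.7 against 257, just inside that limit with a fold of 0.349. The exception was Il1rn, the receptor antagonist that blocks both forms of interleukin-1: 38754 normalised counts in the library labelled Aire-KO and 40494 in WT, a fold of 0.957. In CPM the library labelled Aire-KO lay under all 3 WT libraries for Il1a, Il1b, Il18 and Il33 and inside their range for Il1rn, though for Il1b the margin was small (2.51 against at least 2.54 CPM). Against the WT mTEChi library of the second pair the fold of Il1b was 0.987 and against 0 h 0.512, so its 3-fold difference held only in the Aire pair.

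Set against mTEClo, these genes behaved differently. Il33 was 3.94-fold lower in mTEChi (3.67 to 4.23), with 811 normalised counts there and 3197 in mTEClo. Il1rn had 26333 against 10663, 2.47-fold higher. Il1a (487 and 408), Il1b (299 and 453) and Il18 (159 and 135) differed by less than 2-fold between mTEChi and mTEClo. The sums of 7 endothelial and 8 fibroblast genes, cell types that also transcribe Il33, moved with it here at 48.4 against 247 CPM and 162 against 837 CPM. In the Aire pair, where Il33 was lower, the endothelial sum was 28.0 against 66.1 CPM, while the fibroblast sum was 200 against 132 CPM. The part of these cell types was not tested.

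The genes of the common gamma chain, TSLP and type 2 group split into opposite directions in the Aire pair. Il5, the eosinophil growth factor, had 92.5 normalised counts in the library labelled Aire-KO and 1473 in WT, 15.9-fold lower (13.0 to 19.7). Its WT level spanned 4.72-fold, and against the 0 h library the fold was 0.214 in place of 0.0628. Il2, the T cell growth factor, had 19.4 against 119, 6.12-fold lower (3.82 to 10.3). Tslp, an epithelial cytokine that acts on dendritic cells, had 161 against 511, 3.18-fold lower (2.67 to 3.80). On the other side stood Il4, which directs Th2 differentiation, with 1301 normalised counts against 422, 3.09-fold higher (2.76 to 3.46). Il13, the effector cytokine of type 2 immunity, had 26342 against 12423, 2.12-fold higher (2.08 to 2.17), and Il15, which sustains NK and memory CD8 T cells, had 7388 against 3030, 2.44-fold higher (2.34 to 2.55). Il7, the survival factor of thymocytes, had 6600 against 4223. In CPM the library labelled Aire-KO exceeded all 3 WT libraries for Il4, Il7, Il13 and Il15, and none of the 4 was called in edgeR. The margin was small for Il7, with 49.9 CPM against at most 43.5. Scaling by equal total reads in place of size factors moves every log2 fold of this pair by -0.23, and Il4 then lies under 3-fold. In CPM it was 2.54-fold higher than in the WT mTEChi library of the second pair and 1.5-fold higher than at 0 h.

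This group showed the widest gap between mTEChi and mTEClo, where 6 of 7 genes were at least 3-fold higher in mTEChi. Il13 had 16605 normalised counts in mTEChi and 446 in mTEClo, a fold of 37.2 (33.0 to 42.2). In CPM the 3 WT mTEChi libraries held 110, 141 and 61.0 of it against 3.61 in mTEClo. Il5 had 1810 against 68.2 normalised counts, 26.5-fold higher, and Il2 95.6 against 3.33, 28.7-fold higher with a wide interval of 7.82 to 239 since mTEClo held 2 reads. Il4 had 456 against 49.9 (9.13-fold), Il15 4263 against 947 (4.50-fold) and Tslp 747 against 215 (3.48-fold). Il7 was the exception, with 5106 normalised counts in mTEChi against 13314 in mTEClo, 2.61-fold lower (2.53 to 2.69).

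Il4, Il13 and Il5 lie with Il3 and Csf2 on mouse chromosome 11, between positions 53416484 and 54080779 of build NCBIM37, a stretch of 664 kb. Il4 and Il13 are 12.7 kb apart and Il5 follows 86.1 kb further, while Il3 and Csf2 stand 15.6 kb from each other at the far end. All 5 were at least 3-fold higher in mTEChi than in mTEClo. In the Aire pair they parted: Il4 and Il13 were higher, Il5 and Il3 were at least 3-fold lower and Csf2 was 2.55-fold lower. The promoters of the genes that were higher (Il4, Il13) and of those most reduced (Il5, Il3) are shown side by side for this reason, as 300 bases from 250 before to 50 after the start (RefSeq, build GRCm38.p6), 5′ to 3′ on the strand of the gene. Capitals mark 3 motifs on either strand, and touching matches run together. GGAAA is the core bound by NFAT, AGATAA is a motif of the factor family that includes Gata3, and TATAAA is the TATA box.
Il4 (chr11:53618616-53618915, minus strand): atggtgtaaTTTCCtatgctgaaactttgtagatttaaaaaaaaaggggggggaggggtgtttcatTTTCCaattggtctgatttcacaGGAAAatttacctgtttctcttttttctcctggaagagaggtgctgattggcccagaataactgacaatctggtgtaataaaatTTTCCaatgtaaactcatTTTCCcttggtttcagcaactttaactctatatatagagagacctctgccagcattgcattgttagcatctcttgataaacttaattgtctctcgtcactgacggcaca
Il13 (chr11:53634653-53634952, minus strand): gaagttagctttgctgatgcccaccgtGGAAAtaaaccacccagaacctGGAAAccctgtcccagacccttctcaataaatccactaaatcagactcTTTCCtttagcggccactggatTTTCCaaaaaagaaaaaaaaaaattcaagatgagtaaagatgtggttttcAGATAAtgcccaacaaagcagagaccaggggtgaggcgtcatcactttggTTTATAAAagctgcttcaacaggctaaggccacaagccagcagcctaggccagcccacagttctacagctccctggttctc
Il5 (chr11:53720544-53720843, plus strand): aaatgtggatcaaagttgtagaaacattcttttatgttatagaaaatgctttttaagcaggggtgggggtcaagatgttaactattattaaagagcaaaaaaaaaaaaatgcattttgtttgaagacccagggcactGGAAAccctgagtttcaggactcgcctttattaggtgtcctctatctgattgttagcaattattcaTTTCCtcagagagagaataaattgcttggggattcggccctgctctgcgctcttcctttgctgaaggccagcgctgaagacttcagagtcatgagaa
Il3 (chr11:54267230-54267529, minus strand): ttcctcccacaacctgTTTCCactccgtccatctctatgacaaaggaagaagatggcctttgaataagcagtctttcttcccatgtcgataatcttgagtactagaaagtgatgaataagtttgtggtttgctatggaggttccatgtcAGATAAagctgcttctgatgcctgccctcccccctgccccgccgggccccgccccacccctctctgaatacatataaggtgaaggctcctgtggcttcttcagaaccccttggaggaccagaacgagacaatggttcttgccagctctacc
GGAAA occurred 5 times in the Il4 promoter, 4 times in Il13, 2 times in Il5 and 1 time in Il3, and it is common, with a match in 61.3% of all 27025 promoters and in 27 of 30 analysed members with a promoter in the table. The counts take the start furthest 5′, since 7 members have several. The second start of Il4 has 1 GGAAA, and Csf2, which was lower in the Aire pair, has 3. At the start furthest 5′, Il4 and Il13 had more matches than Csf2, Il5 and Il3, which does not hold for the second start of Il4. A link with the direction in the Aire pair was not tested. AGATAA occurred in Il13 and Il3, in 5 of 30 members and in 11.4% of all promoters. TATAAA, which overlaps its own reverse complement in Il13 and is counted there on both strands, was found in 13 of 30 members against 14.2% of all. TGANTCA, the AP-1 motif, was found in 8 of 30 against 7.92%, and the NF-kB consensus in 4 of 30 against 8.19%. Of the 30 members 1, Csf1, had there an observed over expected CpG ratio of at least 0.6, against 36.5% of all promoters, and with every start counted Il12a was a second.

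In the interleukin-6 family, Osm, a product of myeloid cells, had 42.5 normalised counts in the library labelled Aire-KO and 510 in WT, 12.0-fold lower (8.85 to 16.6). That WT library was itself high for Osm, with 4.53 CPM against 1.08 and 0.742 CPM in the other WT mTEChi libraries, and against 0 h its fold was 0.433. Lif, which maintains stem cells in mouse culture, had 2135 against 3404 normalised counts and Il11 150 against 90.8, both within 2-fold. Il6, an inflammatory cytokine of stromal and myeloid cells, had 128 against 381, a fold of 0.335 (0.273 to 0.409) that missed the 3-fold limit by little. In CPM it read 0.965 in the library labelled Aire-KO and 3.37, 1.56 and 3.74 in the 3 WT libraries.

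Il6 was also the member with the sharpest excess in mTEClo. It had 183 normalised counts in mTEChi against 2413 in mTEClo, 13.2-fold lower (11.6 to 14.9), and in CPM mTEClo stood at 19.6 with WT mTEChi at no more than 3.74. The edgeR log2 fold of the 3 WT mTEChi libraries over mTEClo was -2.91 (SE 0.55, adjusted p = 0.0405). The fibroblast and endothelial sums given above were likewise higher in mTEClo. Lif had 4242 in mTEChi against 1924 in mTEClo and Il11 125 against 68.2, with folds of 2.21 and 1.83, and Osm had 127 against 161.

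The interleukin-12, interleukin-10 and interleukin-17 families had 6 of 8 genes within 2-fold of WT in the Aire pair. Most entries were so too, 17535 of 26761, and whether this group differs from them was not tested. Il23a, the subunit that makes interleukin-23, had 16301 normalised counts in the library labelled Aire-KO and 16906 in WT, a fold of 0.964. Il12a, the p35 subunit of interleukin-12 and interleukin-35, had 10404 against 6250 (1.67-fold). Il22, which acts on epithelia, had 363 against 343, Ifng, the Th1 cytokine, 362 against 401, and Il16, a chemoattractant of CD4 T cells, 487 against 521. Il10, the regulatory cytokine, lay lower at 1783 against 4046 (2.27-fold lower, 2.15 to 2.40), but its WT level differed 3.47-fold between libraries and the library labelled Aire-KO fell inside that range. Il17f had 8.32 against 9.73. For Il22 and Il17f this rested on the WT library of the pair: against the WT mTEChi library of the second pair their folds were 0.342 and 0.106, and against 0 h 0.540 and 0.170.

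Several of these genes were far higher in mTEChi than in mTEClo. Il22 had 941 normalised counts in mTEChi and 39.9 in mTEClo, 23.6-fold higher (15.8 to 36.9). Il12a had 5902 against 288, 20.5-fold higher (17.6 to 24.0), and its edgeR log2 fold was 4.41 (SE 0.61, adjusted p = 0.0371). Il23a had 22158 against 3396 (6.52-fold), Il17a 105 against 13.3 (7.86-fold, 3.90 to 18.5) and Ifng 391 against 73.2 (5.34-fold). Thus 5 of 8 were at least 3-fold higher in mTEChi. Il10, Il16 and Il17f were within 2-fold of mTEClo, with 1718 against 2246, 598 against 865 and 69.7 against 38.3 normalised counts.

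All 5 colony-stimulating factors had lower values in the library labelled Aire-KO, Il3 and Csf3 by at least 3-fold. Il3 had 21.3 normalised counts there against 339.5 in WT, 16.0-fold lower. Csf3 (G-CSF), which drives neutrophil production, had 2 reads or 1.85 normalised counts there against 68.1 in WT, a fold of 0.0272 with a counting interval of 0.00322 to 0.102. Csf2 (GM-CSF) had 612 against 1558, 2.55-fold lower (2.32 to 2.79), and Il34, a second ligand of the macrophage receptor CSF1R, 322 against 743, 2.31-fold lower. Csf1 (M-CSF), the main ligand of that receptor, had 4284 against 4540, a fold of 0.944. The gap between the CSF1R ligands was not found with other WT libraries: against the WT mTEChi library of the second pair the folds were 0.490 for Csf1 and 0.491 for Il34, and against 0 h 0.703 and 0.986.

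Between the WT subsets the factors went both ways. Csf2 had 1404 normalised counts in mTEChi against 300 in mTEClo (4.69-fold higher, 4.03 to 5.49) and Il3 351 against 29.95 (11.7-fold, 7.35 to 19.9). Csf3 had 70.9 against 451, 6.36-fold lower (5.11 to 7.96), and Il34 582 against 2361, 4.06-fold lower (3.73 to 4.41). For Csf3 the edgeR log2 fold was -2.96 (SE 0.61, adjusted p = 0.0461). Csf1 had 7760 against 10760, within 2-fold.

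Of the 11 TNF family ligands, 10 were classed in the Aire pair, since Fasl had 4.62 normalised counts against 0. Besides Tnfsf4 (15.7 against 320, 20.4-fold lower, 12.5 to 35.4), Tnfsf14 and Tnfsf11 were at least 3-fold lower in the library labelled Aire-KO. Tnfsf14 (LIGHT), a ligand of the lymphotoxin beta receptor, had 28.7 against 329, 11.5-fold lower (7.91 to 17.2). Its WT libraries held 2.91, 1.47 and 0.731 CPM, and the fold was 0.147 and 0.296 against the other WT libraries in place of 0.0872. Tnfsf11 (RANKL), the ligand that drives mTEC maturation and in the thymus comes mainly from lymphoid cells, had 45.3 against 193, 4.25-fold lower (3.08 to 5.95). In CPM it stood at 0.343 in the library labelled Aire-KO, with the 3 WT libraries close together at 1.71, 1.79 and 1.68. The innate lymphoid cell list summed to 72.4 against 81.9 CPM and the T cell list to 34.7 against 53.5 CPM in that pair, and their part was not tested.

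The abundant TNF ligands differed less. Tnf, the founding member, had 5598 against 7647 normalised counts (fold 0.732) and Lta, or lymphotoxin alpha, 984 against 1707 (fold 0.576). Ltb, whose product joins lymphotoxin alpha at the cell surface, had 2760 against 1834 (1.51-fold) and Tnfsf9 (4-1BBL), a costimulator of CD8 T cells, 10526 against 6661 (1.58-fold). Tnfsf10 (TRAIL) had 1853 against 3308, Tnfsf13b (BAFF), the B cell survival factor, 211 against 462, and Tnfsf15 (TL1A) 1159 against 1735. None of these passed the 3-fold limit in either direction.

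Against mTEClo, 6 TNF ligands were at least 3-fold higher in mTEChi and Tnfsf10 was lower. Lta had 1887 normalised counts in mTEChi and 56.6 in mTEClo, 33.4-fold higher (23.8 to 48.3). Tnfsf9 had 11738 against 1135 (10.3-fold), Tnf 9650 against 1160 (8.32-fold, 7.71 to 8.99) and Tnfsf4 477 against 64.9 (7.35-fold). Ltb had 3056 against 847 (3.61-fold) and Tnfsf15 2660 against 780 (3.41-fold). Tnf, Lta and Ltb, which lie within 10.9 kb on chromosome 17 (NCBIM37 35331384 to 35342296), were all higher in mTEChi in this pair. Tnfsf10 had 2665 against 9041 normalised counts, 3.39-fold lower (3.26 to 3.53). Tnfsf11 had 210 against 98.2, Tnfsf13b 490 against 321, Tnfsf14 173 against 112 and Fasl 33.7 against 68.2.

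Over all members, 19 of 40 were at least 3-fold higher in mTEChi than in mTEClo and 5 at least 3-fold lower, with a median fold of 2.34 against 1.01 over 29212 entries. The background shares were 11.8% and 12.8%, so higher members exceeded it (19 of 40) and lower ones matched it (5 of 40). In CPM, mTEClo was under all 3 WT mTEChi libraries for 25 members and over them for 9, where all entries gave 36.7% and 27.1%. The edgeR fit of the 3 WT mTEChi libraries against mTEClo called 4 of 40 members higher in mTEChi (Lta, Il13, Il12a and Il4) and 2 lower (Il6 and Csf3), with 1.92% and 1.45% of 24687 entries called. The log2 folds were 4.82 for Lta (SE 0.71, adjusted p = 0.0371), 4.73 for Il13 (SE 0.84, adjusted p = 0.0371) and 3.37 for Il4 (SE 0.69, adjusted p = 0.0458) in edgeR. Without the mTEChi library of that pair edgeR called 0 members and also 0 of all 24473 entries. DESeq2 with all libraries called 20 members, 14 higher and 6 lower, with 7.32% and 3.87% of all entries called. Without the 0 h library edgeR called 21, 15 higher and 6 lower, with 7.46% and 4.93% of all entries called. Of the 24 members past 3-fold, Il33, Tslp, Il34, Ltb, Tnfsf10 and Tnfsf15 were within 3-fold when the WT library of the Aire pair stood in for mTEChi (folds of 0.399, 2.61, 0.344, 2.37, 0.400 and 2.43). With the 0 h library in its place Il15 (2.31), Tslp (2.82) and Tnfsf15 (1.16) were.

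**Figure D2:**
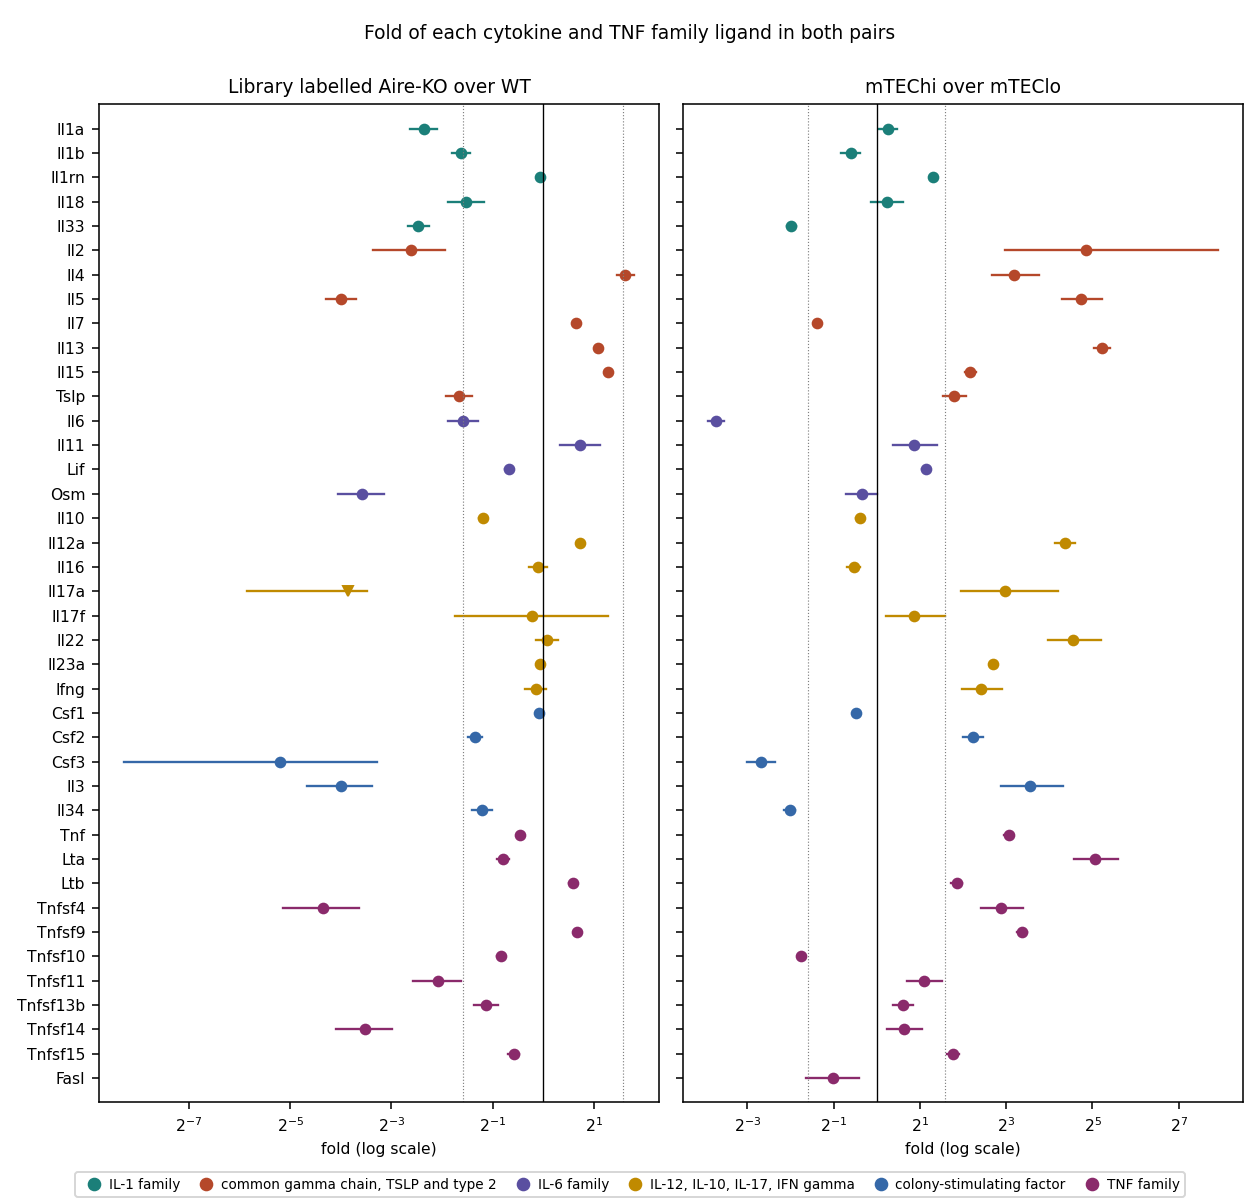
Fold of each member, on a log axis, in the library labelled Aire-KO over WT (left) and in mTEChi over mTEClo (right), coloured by role. Bars are exact 95% counting intervals, solid lines mark no difference, dotted lines 3-fold, and the triangle marks a 0 set to 3 reads. On the left 13 members lie beyond the lower dotted line and Il4 beyond the upper one. On the right 19 lie beyond the upper line and 5 beyond the lower one.

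The 2 comparisons share no library, so the members can be read by both. Of the 13 members that were at least 3-fold lower in the library labelled Aire-KO, 6 were at least 3-fold higher in mTEChi than in mTEClo (Il2, Il3, Il5, Il17a, Tnfsf4 and Tslp), 2 were at least 3-fold lower there (Il33 and Csf3) and 5 were neither (Il1a, Il1b, Osm, Tnfsf11 and Tnfsf14). Another 9 members were at least 3-fold higher in mTEChi and within 2-fold of WT in the library labelled Aire-KO: Il12a, Il22, Il23a, Ifng, Tnf, Lta, Ltb, Tnfsf9 and Tnfsf15. Hence the excess in mTEChi was found both in members that were lower in the library labelled Aire-KO and in members that were not. The same overlap was not counted over all entries, so whether these numbers differ from those of genes in general was not tested.

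**Figure D3:**
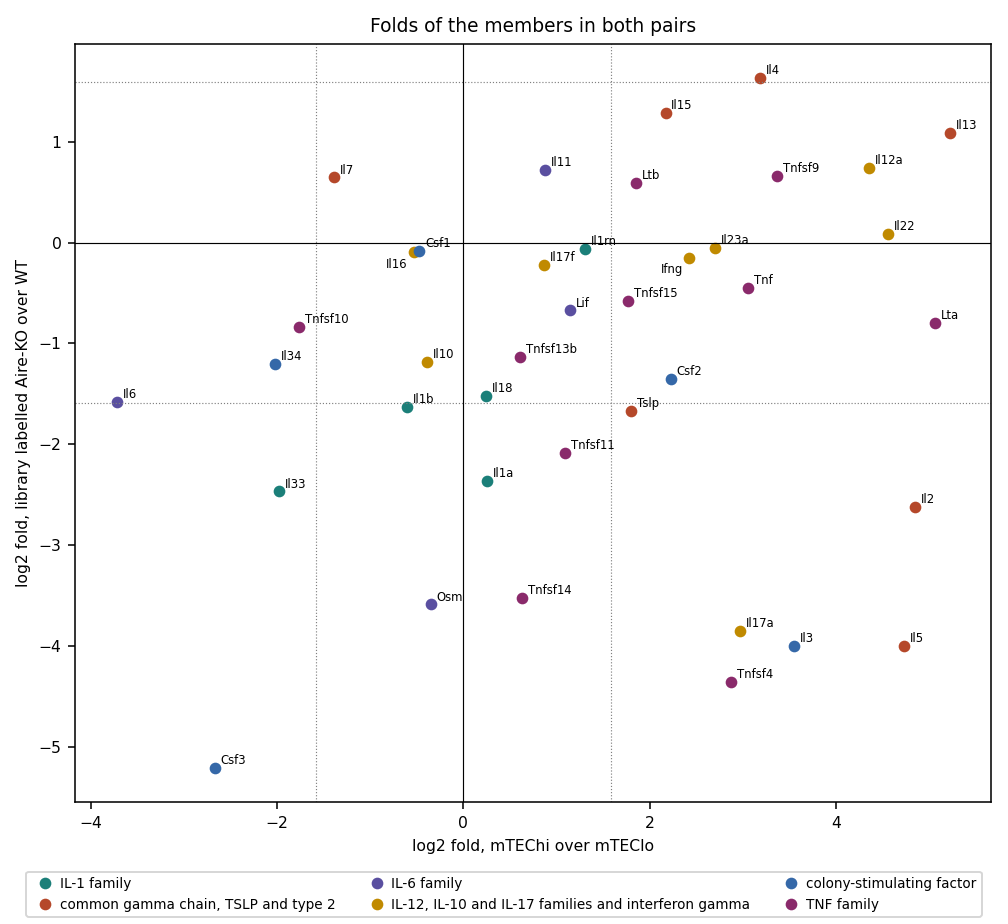
Log2 fold of 39 members in the library labelled Aire-KO over WT (vertical) against that in mTEChi over mTEClo (horizontal), 1 point a gene, coloured by role, with dotted lines at 3-fold. The lower right corner holds Il2, Il3, Il5, Il17a, Tnfsf4 and Tslp, and the right edge near the horizontal axis holds Il22, Il12a, Tnf and Lta. Il33 and Csf3 lie in the lower left corner.

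Grouped by the nonamer, the members overlapped widely. The 10 members that carry it (Il2, Il11, Il12a, Il13, Il22, Il23a, Lif, Csf2, Tnf and Lta) had folds of 1.83 (Il11) to 37.2 (Il13) in mTEChi over mTEClo, with a median of 14.4. The 28 without it, Fasl left out for its low counts, had 0.0760 (Il6) to 26.5 (Il5), with a median of 1.69. In the library labelled Aire-KO over WT the ranges were 0.163 to 2.12 (median 0.848) and 0.0272 to 3.09 (median 0.391). These are descriptions of a grouping made on the annotation, with no test.

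Blocking transcription with actinomycin D was used to see which transcripts decay. The values are shares of all reads, so a transcript that decays like the rest keeps its CPM. Among 32 members with at least 100 reads at 0 h, 16 were above and 16 below their 0 h level after 1.5 h. After 3 h the numbers were 20 and 12, after 6 h 22 and 10, and after 12 h 13 and 19. With 0 reads set to the limit of 3 reads, their median log2 change against 0 h was -0.0023, 0.16, 0.34 and -0.18 in order of time. For all 20539 entries of that depth the medians were -0.13, -0.14, -0.35 and -0.31. Against 0 h the members' medians were above those of all entries. A second measure added 0.5 reads in place of the limit and took the 39 members with at least 10 reads summed over the series. By it the median of 12 h over 0 h was -0.42 for the members and -0.60 for all 23850 entries. Among the treated libraries, which share a kit, the order turned at 12 h by this second measure. The median of 12 h over 1.5 h was -0.75 for the 39 members and -0.43 for all entries.

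The edgeR slope over hours in the 4 treated libraries, which share a kit, called 0 of 35 members tested in either direction. It also called 0% of 20652 entries higher and 0% lower. At an unadjusted p under 0.05 in edgeR were 3 members (Il15 and Ltb upward, Tnfsf10 downward) and 1896 of the 20652 entries. DESeq2 called 0 members and gave an adjusted p for 7. Without the 6 h library edgeR called 5 members, of which Il15, Il22, Ltb and Tslp rose in share and Tnf fell, with 3.51% of all entries called higher and 5.65% lower. In the 12 h library 3 reads amount to 1.72 CPM, and low members cannot be followed there.

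The abundant cytokine transcripts were counted throughout. Il23a had 153 CPM at 0 h, then 136, 146, 159 and 175 CPM at the 4 later times. Il13 had 61.0 CPM at 0 h, then 106, 87.3, 76.8 and 79.6 CPM. Tnf had 59.3 CPM at 0 h, then 58.1, 65.9, 97.1 and 20.04 CPM. All 3 carry the nonamer, and at 6 h each was above its 0 h level. At 12 h Tnf was under it, on 35 reads. Il12a had 59.1 CPM at 0 h, then 99.7, 113, 130 and 44.1 CPM, and Tnfsf9, which has no nonamer, 189 CPM, then 167, 189, 204 and 80.7 CPM. Il15 had 17.8 CPM at 0 h, then 25.2, 23.7, 30.3 and 55.5 CPM, above 0 h at every time, and Ltb reached 72.7 CPM at 12 h with 28.1 at 0 h. Il4 stood at 6.56 CPM at 0 h and at 13.9, 20.7, 19.9 and 13.2 CPM afterwards.

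Other members disappeared from the count. At 6 h, 7 of 32 had 0 reads (Il33, Il6, Ifng, Il3, Il34, Tnfsf10 and Tnfsf11), and at 12 h 7 had 0 reads, of which 6 were shared. These are 21.9% at each time, against 17.3% of all entries at 6 h and 12.4% at 12 h. Tnfsf10 had 8.39 CPM at 0 h, then 6.63 and 5.88 CPM, and 0 reads at 6 h. By the 3-read limit of 0.266 CPM it was 31.6-fold under its 0 h level, with a counting interval up to a fold of 0.0390. Il33 had 6.81 CPM at 0 h, then 4.36 and 7.96, and 0 reads at 6 h. By the same limit it was 25.6-fold lower, with a counting interval up to a fold of 0.0481. Il6 had 3.74, 5.44 and 6.45 CPM, 0 reads at 6 h and again 12 reads or 6.87 CPM at 12 h. The 6 h library had 0 reads for 31.5% of its entries, against 26.9% at 12 h, although it held 6.47 times more reads; the part of this in the zeros was not tested. Il1a went the other way, with 4.14, 5.35, 1.43 and 12.9 CPM up to 6 h and 0 reads at 12 h, and Il7 stood at 17.9, 11.4, 16.8, 5.75 and 15.5 CPM over the 5 times.

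Split by the nonamer, none of the 8 members that carry it and had at least 100 reads at 0 h were at 0 reads at 6 or 12 h, whereas 7 of 23 without it were at each of these times. This holds only at that depth: Il2 and Il11 carry the nonamer, had 49 and 87 reads at 0 h, and had 0 reads at 6 h. Il2 had 0 reads at 12 h too. Of the members without it under that depth, Osm, Il17a, Il17f, Tnfsf14 and Fasl had 0 reads at 6 h and Csf3 had 55. Median log2 changes at that depth were 0.21, 0.22, 0.86 and 0.0025 with the nonamer and -0.042, 0.029, 0.15 and -0.21 without it, at 1.5, 3, 6 and 12 h. Without the depth limit the 6 h medians were 0.52 for 10 carriers and -0.19 for 28 members without it. At 0 h the 8 with the nonamer had 5.08 to 153 CPM and the 7 at 0 reads at 6 h 1.68 to 8.39 CPM, and the part of abundance was not tested.

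**Figure D4:**
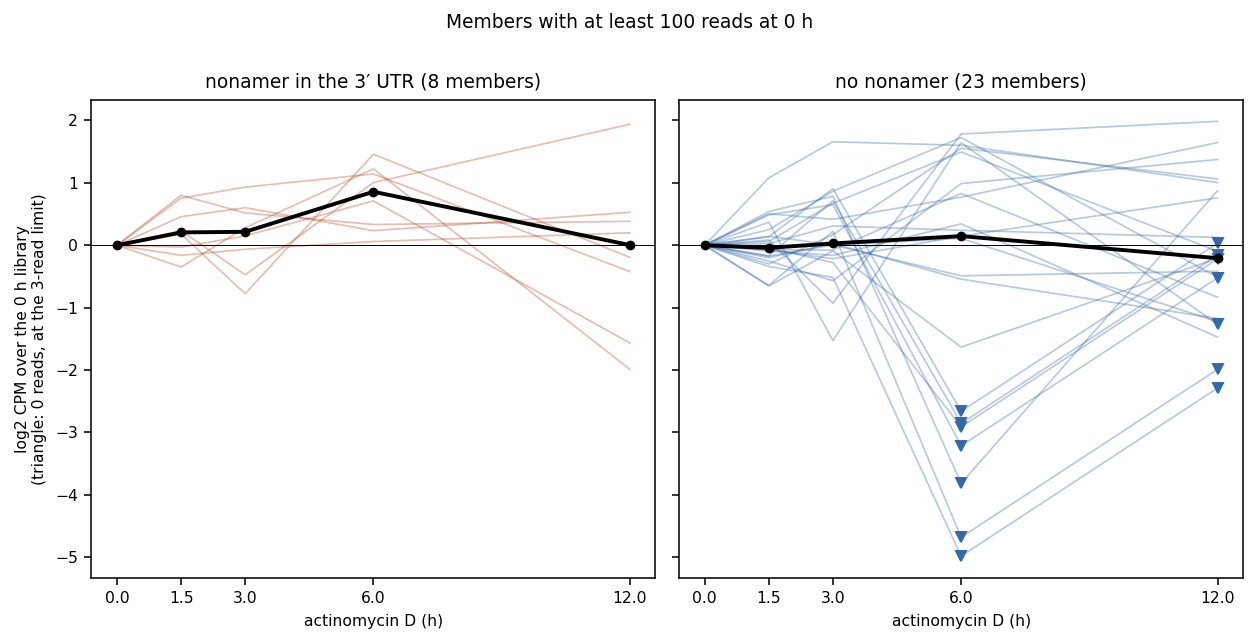
Log2 CPM over the 0 h library against hours of actinomycin D for members with at least 100 reads at 0 h, 8 with the nonamer TTATTTATT in the 3′ UTR on the left and 23 without it on the right. Thin lines are genes, thick lines medians and triangles 0 reads drawn at the limit of 3 reads. On the left all 8 lie above 0 at 6 h (0.059 to 1.46), and on the right 7 genes drop to triangles at 6 h.

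Of the other members, Csf2 had 9.82 CPM at 0 h and 27.0 CPM at 6 h, Csf1 46.1 and 58.4, Il1rn 110 and 78.3, Il10 10.3 and 7.08, Lif 13.6 and 31.9, and Lta 11.5 and 13.5 CPM. Tslp had 4.91 CPM at 0 h and 16.9 at 6 h, Il22 5.08 and 10.2, Il5 3.26 and 10.8, Il1b 4.90 and 13.8, Il18 2.04 and 3.63, and Il16 6.08 and 6.73. Tnfsf15 had 7.35 and 8.68, Tnfsf4 2.74 and 8.06, and Tnfsf13b 3.46 and 8.76 CPM. The remaining 8 members (Il2, Il11, Osm, Il17a, Il17f, Csf3, Tnfsf14 and Fasl) had 7 to 87 reads at 0 h. Their reads at 6 h are given above, and they are not read further.

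In the Aire pair 21.1% of all entries were at least 3-fold lower, with a median fold of 0.978. Receptor genes were near or under this share, while their median folds lay above that of all entries. Of 37 cytokine receptor genes, 6 were at least 3-fold lower in the library labelled Aire-KO and none higher, with a median fold of 1.21, and of 14 TNF receptor genes 3 were lower and none higher, with a median of 1.39. The most abundant of them, Il4ra, which carries the signals of interleukin-4 and interleukin-13, had 41895 against 31093 normalised counts. Tnfrsf11b, the decoy receptor of RANKL, had 26099 against 15257 and Tnfrsf11a, the RANKL receptor, 21492 against 11443. In contrast, 12 of 26 further cytokine genes were at least 3-fold lower and none higher (median 0.356), as were 3 of 7 further TNF ligands (median 0.455). Among the further cytokines, Ebi3, a subunit of interleukins 27 and 35, had 2814 against 7497 and Kitl, the ligand of Kit, 5352 against 2310.

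Between mTEChi and mTEClo, 11.8% of all entries were at least 3-fold higher in mTEChi and 12.8% at least 3-fold lower. Of 37 cytokine receptors, with a median fold of 1.48, 11 were at least 3-fold higher and 3 at least 3-fold lower. These 3, named after their values were seen, were Il6st, Lifr and Osmr. Of other receptors of the interleukin-6 family, Il6ra had 1168 against 1616 normalised counts and Il11ra1 17671 against 11518. Among TNF receptors 7 of 14 were higher, Tnfrsf11b with 26848 against 4802 and Fas with 11840 against 3223, and 1 lower. Of the further cytokines 13 of 26 were higher and 3 lower. Of 7 further TNF ligands 1 was higher, Cd70 with 5344 against 356, 0 were lower and 5 were within 2-fold. Of 10 genes listed as cytokine mRNA decay factors, 0 differed 3-fold in the Aire pair. Their median fold there was 1.52 with 9 above 1, and Zc3h12a had 3713 against 8485 normalised counts. Zfp36, which encodes tristetraprolin, had 110985 against 100496 in that pair and 81280 in mTEChi against 106031 in mTEClo. Zfp36l1 had 5491 in mTEChi against 37329 in mTEClo, 6.80-fold lower.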

How the data were processed

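For the pairs the authors deposited counts divided by DESeq size factors, a normalised signal per RefSeq entry, from which whole reads were recovered for 100% of values (within 0.1). For the actinomycin D series the authors deposited raw read counts. Their processing notes name CASAVA, Bowtie 1.0.0, bedtools, DESeq and mm9. A read shared by several entries of a gene counts for each, and strand was not used. Folds within a pair were classed at 3-fold and 2-fold for entries with at least 10 normalised counts, with exact 95% intervals on the split of reads. A 0 was set to 3 reads. Fits used edgeR 4.0.16 quasi-likelihood tests (R 4.3.3) with Benjamini-Hochberg adjustment over all entries and a threshold of 0.05, with DESeq2 1.42.0 as an alternative. The edgeR scripts were tested on simulated data. Nothing states that libraries came from separate cultures, so p-values measure the spread between these libraries, which may be technical. The members and lists were chosen with earlier results of these data known. Members with at least 100 normalised counts in a library of a pair (38 of 40) were given with their values, and from other lists the 3 genes with the highest mean were eligible for naming. Sequences came from GENCODE vM1 (NCBIM37) and RefSeq (GRCm38.p6).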

Additional observations from a re-analysis of the deposited data

How the results depend on the processing

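The number of members called for the library labelled Aire-KO was 3 in edgeR, 10 in DESeq2 and 3 to 10 when 1 WT library was left out (10 without 0 h). For WT mTEChi over mTEClo it was 6 in edgeR, 20 in DESeq2 and 0 to 21 when 1 library was left out. For the slope over hours it was 0, and 0 to 5 when 1 time was left out. The median log2 level of the members at 12 h over 0 h was -0.42 with 0.5 reads added, -0.22 with TMM factors, -0.75 with 1.5 h as the lower time (all entries -0.43) and 0.13 with 0 reads set to the 3-read limit, an alternative chosen after seeing the data. The cause of these differences was not tested. The count of members at least 3-fold lower in the library labelled Aire-KO ranged between 11 and 15 (13 as reported), and that of members at least 3-fold higher in mTEChi between 16 and 19 (19 as reported). At a 2-fold limit the counts were 19 and 22. Scaling to equal total reads moved every log2 fold of the Aire pair by -0.23, which took Il4 under 3-fold. Over single members and some summary values, 479 values stayed within their interval or spread or on their side of the threshold, 150 moved and 6 lost a call. For the fold of a member in a pair, that interval covers counting error only. No paired analysis was possible because each group held 1 library and the groups compared share fewer than 2 replicate numbers. Depth limits the 12 h library most.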
